A study of Bos taurus with 46 samples.

Results

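Plasma microRNAs of heifers on Day 24 of pregnancy (P24) were compared with those of non-pregnant heifers over a whole oestrous cycle (NP). The comparison was chosen by group and day alone and used 35 of the 46 libraries in the series: 11 P24 libraries, 1 from each of 11 pregnant heifers, and 24 libraries of 8 NP heifers. An NP heifer was bled on the day of the sham insemination (Day 0, written NP0) and again at Day 8 (NP8) and Day 16 (NP16), and these 3 libraries were combined to 1 value, so that n was 11 for P24 and 8 for NP. All animals were Holstein-Friesian heifers in the second year of life, kept on a single farm. Oestrus was synchronised in every one of them with a progesterone insert, buserelin and cloprostenol, so both groups carried that treatment. P24 heifers were inseminated with frozen semen and found pregnant by ultrasound, and NP heifers received a sham insemination. No non-pregnant sample of Day 24 was part of the comparison, so the stage and the pregnancy cannot be told apart, and the 2 groups were different animals. Nothing in the labels named a sequencing batch. The other 11 libraries of the series, from Day 16 of pregnancy, entered only the filter on low values.

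MicroRNAs (miRNAs) are short RNAs that guide Argonaute proteins to messenger RNAs and reduce their translation or stability. In plasma they travel in vesicles, in lipoproteins and bound to protein, and most of them come from blood cells, with smaller amounts from vessel wall, liver and muscle. A bovine conceptus at this stage has elongated and begun to attach to the endometrium. In primates, placental miRNAs from an imprinted cluster reach the maternal blood. In bulk plasma, fewer releasing cells of a type and less RNA per cell cannot be told apart.

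Levels were given as RPMM, the reads of a miRNA scaled to 1000000 mapped reads of its library. The 2 tables listed 870 miRNA names, 626 of them bovine (bta) and 244 human (hsa), and 214 names passed the filter on low values. Of these, 206 passed in P24 itself and 8 only in other groups, while 1 passed in P24 but on none of the NP days. The libraries held 651408 to 5400386 miRNA reads in P24 (median 2571078), against 6080997 to 11579898 for the summed NP animals (median 9808837). An NP value therefore rested on more reads and more draws than a P24 value.

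One P24 library stood apart. P24 replicate 24 was the deepest P24 library (5400386 miRNA reads) and held the highest level of the 11 P24 libraries for 67 of the 214 miRNAs, and replicate 10 came next with 44. Leukocyte markers made up 10.9% of its miRNA reads, against 4.95 to 7.53% in the other 10 P24 libraries. Its log2 ratio of miR-451 to miR-23a, an index of red cell lysis, was 3.54, against 1.81 to 2.47 in the others. Both parts of the ratio moved. miR-451 was at 14810 RPMM, against 7069 to 13020 in the others, and miR-23a at 1269 RPMM, against 2013 to 2531. The erythrocyte markers as a list took 23.6% of its miRNA reads, inside the P24 range of 15.6 to 30.8%. Whether red cells had lysed in this sample was not tested. Muscle markers made up 0.152% of the reads of replicate 24, against 0.00695 to 0.0661%. Where leaving it out changed which side of a threshold a result fell on, or moved it far, the value without it is given too.

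No miRNA passed the test between P24 and NP. In edgeR's quasi-likelihood test 0 of 214 (0.0%) passed an FDR of 0.1 with Benjamini-Hochberg adjustment, and the smallest FDR was 0.871. Before adjustment 7 of 214 (3.27%) were at p under 0.05, where evenly spread p-values would give 10.7. DESeq2 and limma also called 0, with 12 and 8 at unadjusted p under 0.05. Of the 7, 2 were higher in P24 (0.935% of those tested) and 5 lower (2.34%). Scaled by library totals in place of TMM, the unadjusted count was 4 higher and 2 lower. An exact two-sided permutation test over all 75582 splits of the 19 animals put 6 miRNAs at p under 0.05, the smallest p being 0.0153 and its FDR 0.991. None of these tests allows for unequal spread. P24 values are single libraries and NP values combine 3 (median SD 0.467 in P24 and 0.323 in NP, log2 scale). The p-values and the expected count are approximate to that extent. With 1 heifer left out in turn, edgeR put 4 (without NP replicate 22) to 12 (without NP replicate 35) at unadjusted p under 0.05, and 11 without P24 replicate 29 or NP replicate 21. Without P24 replicate 24 there were 10, of which 2 passed the FDR limit, and without any other heifer 0 passed. Both were muscle markers, which were among the measures that had set that library apart. No miRNA separated the groups: the P24 and NP ranges overlapped for all 214 (0.0% without overlap). The fold changes were small, with a median log2 fold change of 0.02, and 208 of the 214 estimates lay within 1.5-fold. Positive and negative signs were close to even (111 positive, 51.9%, and 103 negative, 48.1%), although 148 were positive when libraries were scaled by their totals, which moved the median of all miRNAs to 0.09.

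**Figure D1:**
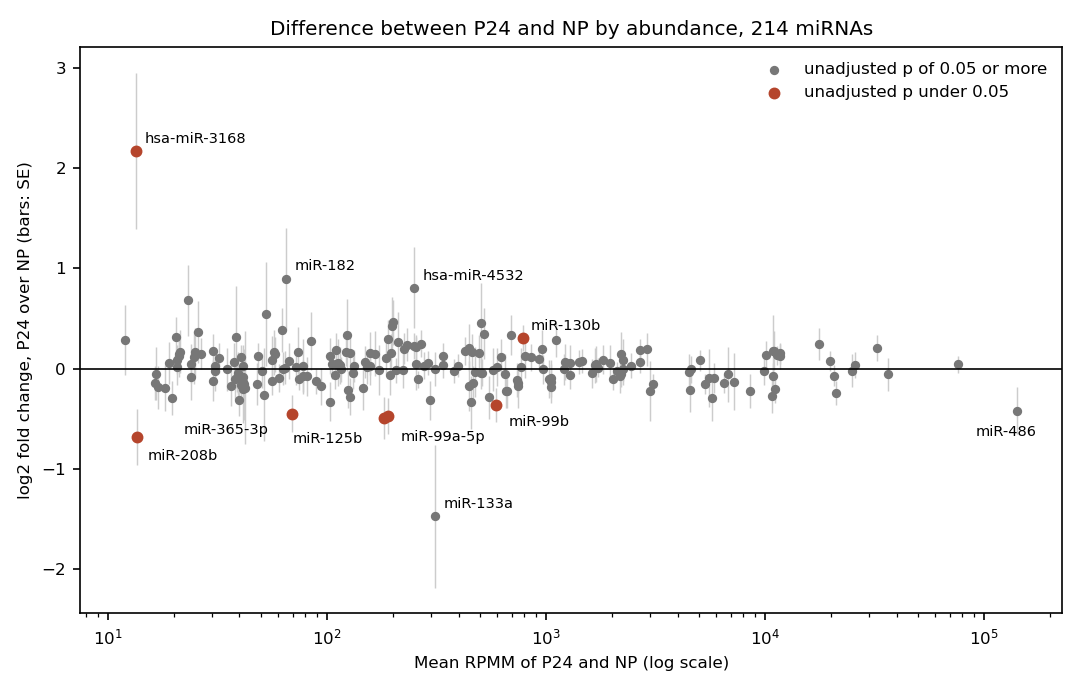
Log2 fold change of P24 over NP (vertical axis) against the mean RPMM of both groups (horizontal axis, log scale) for the 214 miRNAs tested, with bars for the SE of the edgeR estimate. Red points mark the 7 miRNAs at unadjusted p under 0.05, and only miR-133a and hsa-miR-3168 lie beyond 2-fold.

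The 5 members of the miR-99/100/125 family all had values of the same sign. miR-99a, miR-99b and miR-100 share a seed, and miR-125a and miR-125b descend from the lin-4 lineage first described in worms. All 5 were tested and all 5 had a negative log2 fold change, with a median of -0.36, beside a median of 0.02 and 48.1% negative signs over all 214. Unadjusted p was under 0.05 for 3 of the 5 (2.34% of all miRNAs in that direction), and 0 of 5 passed the FDR limit. The family was chosen with earlier results of these libraries known, so its count is a description. All 5 signs stayed negative with library totals (median -0.28), with DESeq2 size factors (median -0.33) and without P24 replicate 24 (median -0.39). The count at unadjusted p under 0.05 was lower in each, at 1 of 5, 2 of 5 and 1 of 5 in that order. Without replicate 24 the edgeR unadjusted p was 0.0259 for miR-99a-5p, 0.0603 for miR-125b, 0.1004 for miR-99b, 0.0534 for miR-100 and 0.377 for miR-125a.

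miR-99a-5p (chr1:20137011-20137031, minus strand, UMD 3.1) had a lowest, median and highest level of 106, 154 and 304 RPMM in P24 heifers, against 142, 223 and 287 RPMM in NP heifers. In P24 10 of 11 heifers were below the NP median and 5 were below every NP heifer, but replicate 17 was above them all. Each NP value is a mean of 3 libraries, and NP heifers spread less (median SD over all miRNAs 0.323 in NP and 0.467 in P24, log2 scale). Single P24 libraries can therefore fall outside the NP range more readily. Counts of heifers outside it, here and below, cover named miRNAs only. Their share over all miRNAs is not given, so they are a description. Its log2 fold change was -0.47 ± 0.18 (SE; edgeR unadjusted p = 0.0136, FDR = 0.871), and the exact permutation p was 0.0177.

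miR-99b (chr18:57588003-57588024, plus strand) had levels of 319, 484 and 912 RPMM in P24, against 553, 686 and 772 RPMM in NP. Here 7 of 11 P24 heifers lay below the lowest NP heifer (a mean of 3 libraries), and replicate 17 again lay above the highest. The log2 fold change was -0.36 ± 0.17 (edgeR unadjusted p = 0.0474, exact permutation p = 0.0215). miR-125b (chr1:20087164-20087185, minus strand) showed the same layout, with 92, 137 and 268 RPMM in P24, against 157, 186 and 327 RPMM in NP. Of the P24 heifers 7 were below the NP range and none was above it, and the log2 fold change was -0.49 ± 0.21 (edgeR unadjusted p = 0.0305, exact permutation p = 0.0270).

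The remaining members had wider spreads. miR-100 (chr15:31460993-31461014, minus strand) ranged over 147, 244 and 524 RPMM in P24, against 222, 329 and 434 RPMM in NP, and P24 replicate 24 held its highest value. Its log2 fold change of -0.32 ± 0.20 had an edgeR unadjusted p of 0.121. miR-125a (chr18:57588678-57588700, plus strand) ranged over 165, 367 and 659 RPMM in P24, against 353, 500 and 685 RPMM in NP, with a log2 fold change of -0.34 ± 0.27 (edgeR unadjusted p = 0.221). The 5 members summed to 1497 ± 485 RPMM (SD) in the 11 P24 heifers and 1948 ± 336 RPMM in the 8 NP heifers. Because the authors allowed 1 mismatch in mapping, reads of near-identical members such as miR-99a and miR-100 may have been shared, and their separate values are uncertain to that extent.

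**Figure D2:**
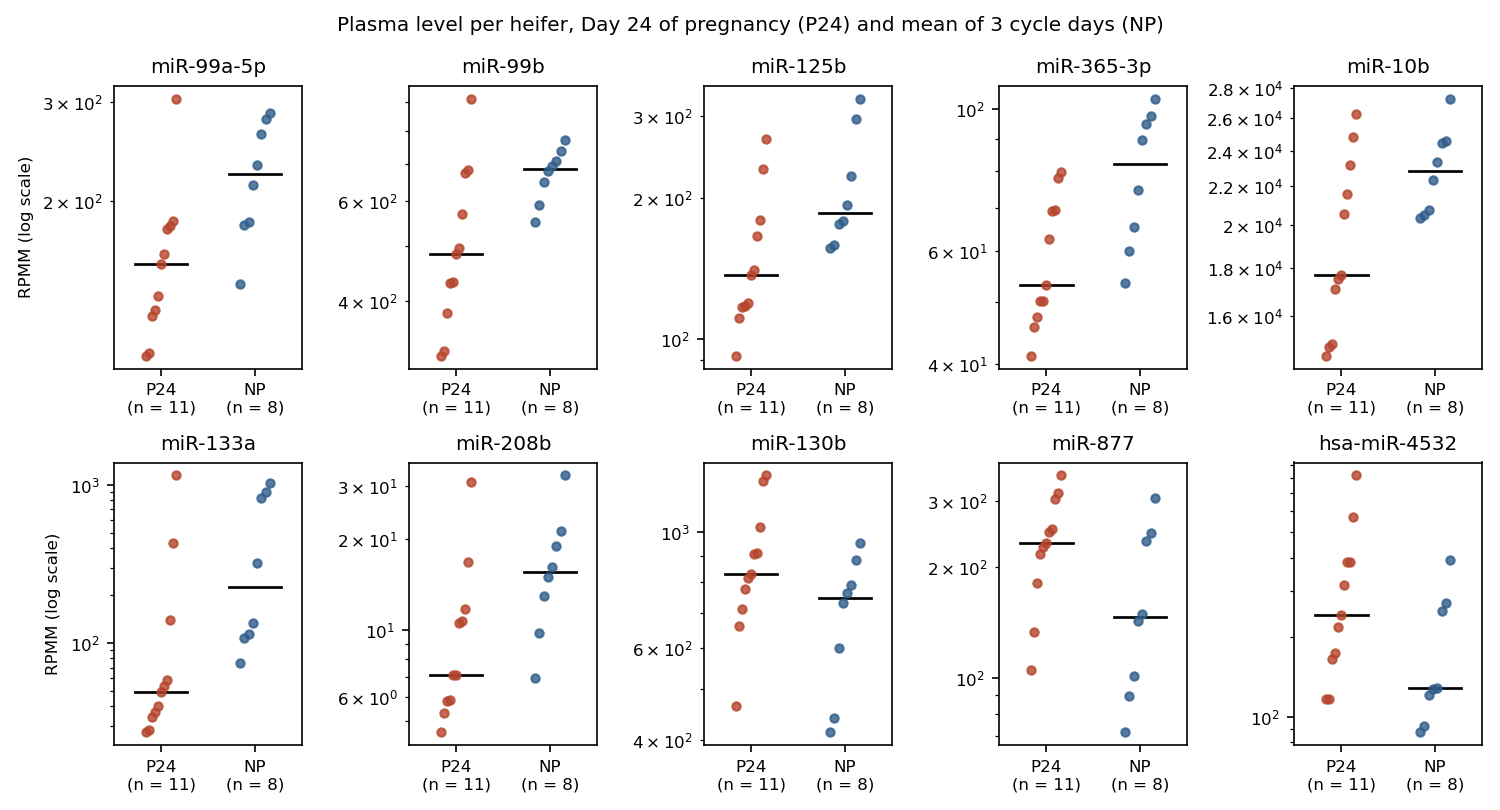
Level of 10 miRNAs in each heifer (RPMM, log scale), P24 (red, n = 11) left of NP (blue, n = 8, mean of 3 cycle days), with a line at each median. Most P24 heifers sit below the NP median for miR-99a-5p, miR-99b, miR-125b, miR-365-3p, miR-10b, miR-133a and miR-208b, and the ranges overlap in every panel.

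In mammals these genes sit in clusters that also hold a let-7 gene, and the let-7 mates had values of mixed sign. let-7c starts 722 bases from miR-99a-5p on chromosome 1, and miR-125b lies 49847 bases away. The log2 fold change of let-7c was 0.05 ± 0.26 (-0.13 without P24 replicate 24 and -0.05 in limma), with means of 268 RPMM in P24 and 244 RPMM in NP. On chromosome 18 let-7e starts 169 bases from miR-99b and miR-125a 675 bases from it. let-7e had a log2 fold change of 0.32 ± 0.51 at 42.1 RPMM in P24 and 34.7 RPMM in NP, so its interval was wide. On chromosome 15 let-7a-5p starts 5821 bases from miR-100 and had the same sign as it. Its log2 fold change was -0.13 ± 0.21, with means of 1002 RPMM in P24 and 1106 RPMM in NP. Each name carries a single listed position, and let-7a-3p is listed on chromosome 5. Reads of let-7a-5p are therefore not shown to come from the copy beside miR-100. The differences between cluster mates were not tested. Over the whole let-7 family, whose members restrain growth and mark differentiated cells, 5 of 9 tested were positive and 4 negative, with a median of 0.02.

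miR-365-3p (chr19:18298087-18298108, minus strand), a miRNA transcribed with the miR-193 genes and linked to brown fat in mice, had the smallest permutation p of all 214. It ranged over 41.2, 53.2 and 79.9 RPMM in P24, against 53.6, 82.3 and 104 RPMM in NP. All 11 P24 heifers were below the NP median, and 6 were below every NP heifer. The log2 fold change was -0.45 ± 0.18 (edgeR unadjusted p = 0.0221, exact permutation p = 0.0153), and without P24 replicate 24 it was -0.38 ± 0.18 (edgeR unadjusted p = 0.0515). Of its partners, miR-193b had a log2 fold change of -0.33 ± 0.20 (means 93.9 RPMM in P24 and 114 RPMM in NP). miR-193a-3p, 12949 bases from miR-365-3p, had the opposite sign at 0.17 ± 0.21 (22.8 RPMM in P24 and 20.2 RPMM in NP). The other arm, miR-365-5p, is listed on chromosome 25, as is miR-193b. Reads of miR-365-3p are therefore not shown to come from its listed position. In the whole group of 6 names, 4 were tested, 1 positive and 3 negative, with a median of -0.24.

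miR-10b (chr2:21426250-21426272, minus strand), encoded within the HOXD gene cluster, is far more abundant. It ranged over 14540, 17710 and 26270 RPMM in P24, against 20360, 22840 and 27240 RPMM in NP, and 6 of 11 P24 heifers were below the NP range. Its log2 fold change was -0.24 ± 0.12 (edgeR unadjusted p = 0.0615, exact permutation p = 0.0367). Its paralogue miR-10a, from the HOXB cluster, had the opposite sign at 0.08 ± 0.10, with means of 5244 RPMM in P24 and 4899 RPMM in NP.

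The NP value averages days whose means were unequal for these miRNAs. miR-99a-5p averaged 160 ± 55.5 RPMM in P24, against 271 ± 98.9 RPMM in NP0, 211 ± 52.7 RPMM in NP8 and 188 ± 61.4 RPMM in NP16 (SD). miR-125b averaged 153 ± 54.6 RPMM in P24, against 261 ± 126, 218 ± 28.0 and 163 ± 60.4 RPMM on the 3 days in order. miR-99b averaged 519 ± 179 RPMM in P24, against 785 ± 182, 663 ± 145 and 570 ± 97.2 RPMM. For each of the 5 family members and for miR-365-3p the NP mean was highest on Day 0 and lowest on Day 16, and the P24 mean was below all 3.

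**Figure D3:**
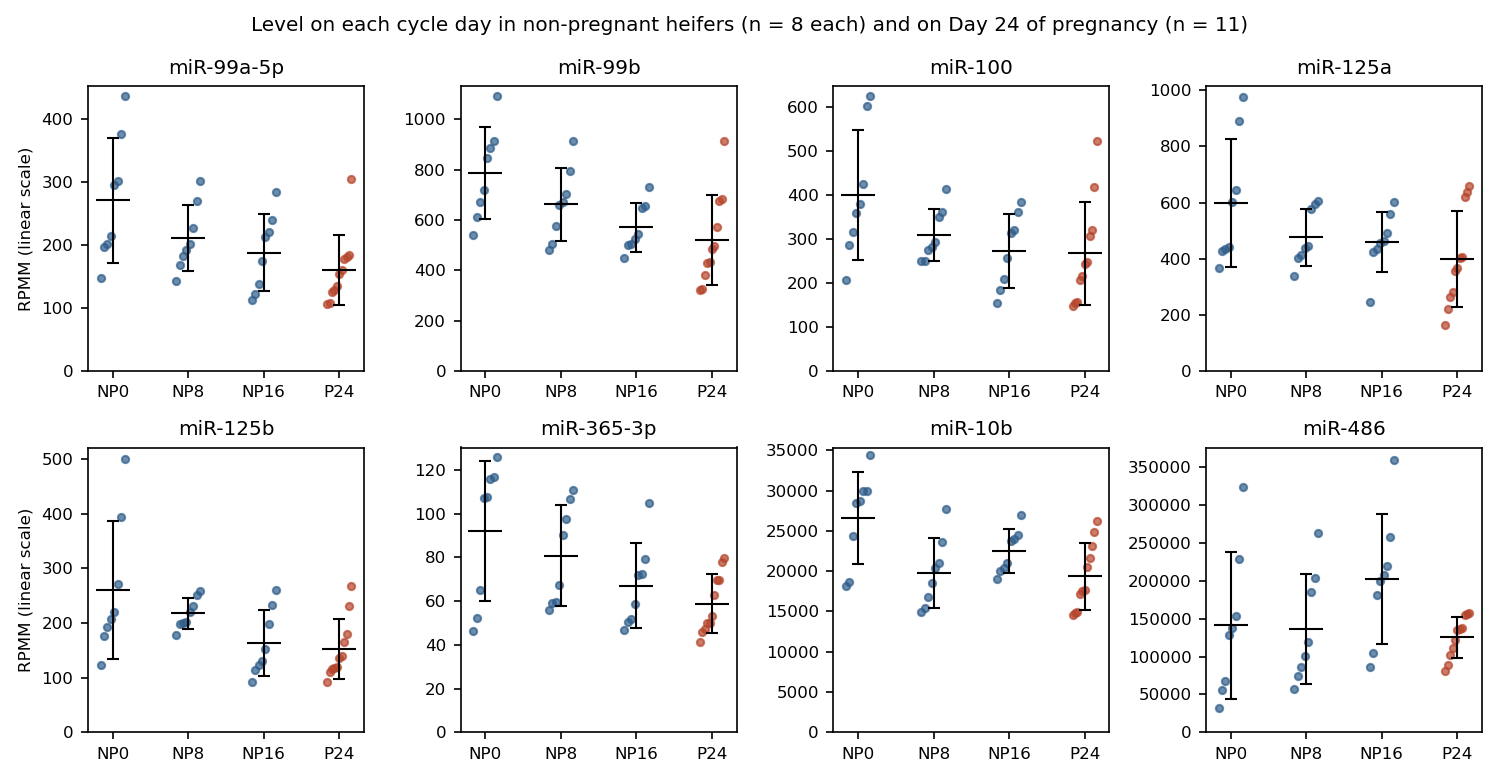
Level (RPMM, linear scale) of 8 miRNAs on each cycle day in NP heifers (blue, n = 8 each) and on Day 24 of pregnancy (red, n = 11), with the mean and SD. The P24 mean of miR-99a-5p, 160 RPMM, lies nearest to NP16 (188 RPMM) and farthest from NP0 (271 RPMM).

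Each day was also set against P24 on its own, and these 3 comparisons share the P24 heifers. Against NP0 alone 5 of 214 miRNAs (2.34%) passed the FDR limit of 0.1 in edgeR, all lower in P24, with a smallest FDR of 0.055. They were miR-99a-5p (log2 fold change -0.86 ± 0.23), miR-208b (-1.38 ± 0.33), miR-10b (-0.50 ± 0.14), miR-27a-3p (-0.49 ± 0.12) and miR-532 (-0.44 ± 0.11). The last 2, members of the miR-23a cluster and of an X-linked cluster, were named because they passed this test. miR-208b had passed the filter only outside P24, which favours a lower value in P24. Before adjustment 33 miRNAs (15.4%) were lower and 3 (1.4%) higher against NP0. Against NP8 alone 0 passed the FDR limit (0.0%), with 3 higher (1.4%) and 3 lower (1.4%) at unadjusted p under 0.05. Against NP16 alone 0 passed (smallest FDR 0.157), with 9 higher (4.21%) and 9 lower (4.21%). All 5 family members had unadjusted p under 0.05 against NP0, 2 of 5 against NP8 and 0 of 5 against NP16, and all 15 signs were negative. Whether the contrasts with the 3 days differ from each other was not tested.

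The muscle markers held the 2 largest negative fold changes, and all 3 that were tested were negative (median -0.68), or 2 of 3 with library totals. miR-133a (chr13:55449796-55449817, minus strand), which is enriched in skeletal and cardiac muscle, ranged over 27.3, 49.4 and 1150 RPMM in P24, against 74.5, 227 and 1026 RPMM in NP. Of the 11 P24 heifers 8 were below every NP heifer, while P24 replicate 24 was above every NP heifer. This holds for NP means of 3 libraries only. A single NP library (NP8 replicate 34) was at 22.3 RPMM, below the lowest P24 library. The log2 fold change was -1.47 ± 0.71 (edgeR unadjusted p = 0.0508, exact permutation p = 0.0333), and without P24 replicate 24 it was -2.38 ± 0.60 (FDR = 0.0760).

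miR-208b, which is encoded in an intron of the slow and cardiac myosin gene MYH7, was low in both groups. It was among the 8 miRNAs that passed the filter only outside P24, so the filter favoured a lower value in P24. It ranged over 4.6, 7.12 and 30.9 RPMM in P24, against 6.93, 15.6 and 32.5 RPMM in NP, with a log2 fold change of -0.68 ± 0.28 (edgeR unadjusted p = 0.0235, exact permutation p = 0.0533). Without P24 replicate 24 this was -0.93 ± 0.23 (FDR = 0.0760), so miR-133a and miR-208b passed the FDR limit once that library was left out. That library stood apart in part by its muscle markers, and it held the highest P24 level of both miRNAs. Leaving it out thus lowers their P24 values by choice, and the calls without it are only a description. miR-499, from an intron of MYH7B and also low, showed no such difference, at 6.55, 11.7 and 37.4 RPMM in P24 and 9.92, 15.9 and 30.6 RPMM in NP (log2 fold change -0.05 ± 0.26). The other 4 muscle markers did not pass the filter, and miR-1, miR-133b, miR-206 and miR-208a averaged 0.39, 1.52, 0.0364 and 0.208 RPMM in P24 and 0.598, 3.22, 0.103 and 0.257 RPMM in NP. The summed list ranged over 43.7 to 1219 RPMM in P24 and 110 to 1071 RPMM in NP. Its NP values also differed by day, miR-133a averaging 574 ± 749 RPMM in NP0, 503 ± 998 RPMM in NP8 and 241 ± 389 RPMM in NP16, and against NP16 alone its log2 fold change was -0.79 ± 0.77. miR-208b likewise averaged 10.6 ± 7.64 RPMM in P24, against 26.4 ± 23.1 RPMM in NP0, 14.1 ± 10.6 RPMM in NP8 and 9.56 ± 3.31 RPMM in NP16. Against NP16 alone its log2 fold change was -0.09 ± 0.27, and the median of the 3 muscle markers was -0.09.

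Among the miRNAs with a positive fold change, miR-130b (chr17:75467538-75467559, minus strand) had the smallest p of those above 25 RPMM. It ranged over 465, 832 and 1281 RPMM in P24, against 414, 747 and 952 RPMM in NP, with 8 of 11 P24 heifers above the NP median and 3 above the NP range. The log2 fold change was 0.31 ± 0.13 (edgeR unadjusted p = 0.0247, exact permutation p = 0.114). miR-301b, a seed relative that starts 319 bases away, had a nearly equal log2 fold change of 0.30 ± 0.19, with means of 210 RPMM in P24 and 171 RPMM in NP. miR-877, a mirtron spliced from an ABCF1 intron, ranged over 105, 232 and 353 RPMM in P24, against 71.6, 146 and 306 RPMM in NP. Its log2 fold change was 0.46 ± 0.23 (edgeR unadjusted p = 0.0555, exact permutation p = 0.0746), and 9 of 11 P24 heifers were above the NP median. The human name hsa-miR-4532 ranged over 116, 243 and 819 RPMM in P24, against 87.3, 128 and 390 RPMM in NP (log2 fold change 0.80 ± 0.40, edgeR unadjusted p = 0.0600). Without P24 replicate 24 its log2 fold change was 0.93 ± 0.40 (edgeR unadjusted p = 0.029, FDR = 0.754). Its NP mean was 256 ± 250 RPMM on Day 0, 166 ± 82.3 RPMM on Day 8 and 128 ± 52.7 RPMM on Day 16.

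Some of the larger positive values rested in part or wholly on 1 library. hsa-miR-3168, low in both groups, had the smallest edgeR p (0.0112) and a log2 fold change of 2.17 ± 0.78. No NP heifer was above 9.19 RPMM, so it may be the 1 name that passed the filter in P24 but on no NP day. Passing through P24 alone would favour a higher value in P24. This miRNA ranged over 0.73, 7.38 and 136 RPMM in P24, against 0.153, 5.28 and 9.19 RPMM in NP, and the 136 RPMM was P24 replicate 24. Without that library the log2 fold change was 1.22 ± 0.65 (edgeR unadjusted p = 0.0740), still the largest of the 214, and the exact permutation p over all 19 animals was 0.174. miR-182, a member of the miR-183 cluster of sensory organs and epithelia, reached 595 RPMM in the same library, and the other 10 P24 heifers held 21.0 to 58.5 RPMM, against 34.8 to 56.7 RPMM in NP. Its log2 fold change was 0.90 ± 0.51 with the library and -0.14 ± 0.16 without it. miR-181d, of a family prominent in lymphocytes, had a log2 fold change of 0.68 ± 0.36 over all animals and 0.16 ± 0.19 without that library.

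The most abundant miRNAs took a like share in both groups. The 10 most abundant took 60.1 ± 3.28% of the miRNA reads in P24 (SD, n = 11) and 61.5 ± 2.76% in NP (SD, n = 8). miR-486, an erythroid miRNA and the most abundant of all, ranged over 80490, 135600 and 156700 RPMM in P24, against 78280, 149600 and 250100 RPMM in NP. NP thus extended higher, and no P24 heifer left the NP range. Its log2 fold change was -0.42 ± 0.24 (edgeR unadjusted p = 0.0875). Against NP16 alone, where its mean was 201700 ± 85810 RPMM, the log2 fold change was -0.87 ± 0.27 (FDR = 0.157). miR-22-3p, widely expressed, averaged 78040 ± 15440 RPMM in P24 and 75030 ± 11720 RPMM in NP. miR-191, abundant in platelets, averaged 35260 ± 8526 RPMM in P24 and 29900 ± 6806 RPMM in NP (log2 fold change 0.21 ± 0.13).

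Markers of the blood cells and tissues that feed the plasma were compared as lists. The 6 erythrocyte markers all had negative signs, with a median log2 fold change of -0.18, but 2 of 6 were positive with library totals or DESeq2 size factors. The erythrocyte markers made up 25.0 ± 5.13% of the miRNA reads in P24 (SD, n = 11) and 28.6 ± 7.90% in NP (SD, n = 8; two-sided exact permutation p = 0.240). Against NP16 alone all 6 were negative, with a median of -0.47 and 3 of 6 at unadjusted p under 0.05 (4.21% of all miRNAs in that direction). Against NP0 and NP8 alone 2 of 6 were positive, with medians of -0.14 and -0.07 in that order. Against the NP average the red cell lysis index was alike in level, at 2.22 ± 0.49 in P24 and 2.25 ± 0.68 in NP on the log2 scale (SD; two-sided exact permutation p = 0.889). In NP16 alone the index was higher than in P24, at 2.77 ± 0.67 (unadjusted two-sided exact permutation p = 0.06). Whether lysis had a part in the erythrocyte values against NP16 was not tested. Platelet markers were positive for 3 of 7 and negative for 4 (median -0.01), and leukocyte markers positive for 5 of 10 and negative for 5 (median -0.01). Liver and gut markers were positive for 2 of the 4 tested, with a median of -0.02. miR-122, the liver's own miRNA, averaged 39.4 RPMM in P24 and 45.2 RPMM in NP (log2 fold change -0.19 ± 0.56). Vessel wall and fibroblast markers were negative for 6 of 7 (median -0.13), but for 3 of 7 with library totals (median 0.00). By day, 7 of 7 were negative against NP0 (median -0.46), with 3 of 7 at unadjusted p under 0.05 beside 15.4% of all miRNAs. Against NP8 2 of 7 were negative (median 0.06), and against NP16 4 of 7 (median -0.03). Against the NP average none of these lists held a miRNA past the FDR limit. Of these 5 lists and the muscle list, only muscle then had a member at unadjusted p under 0.05 (miR-208b), and with library totals it had none.

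**Figure D4:**
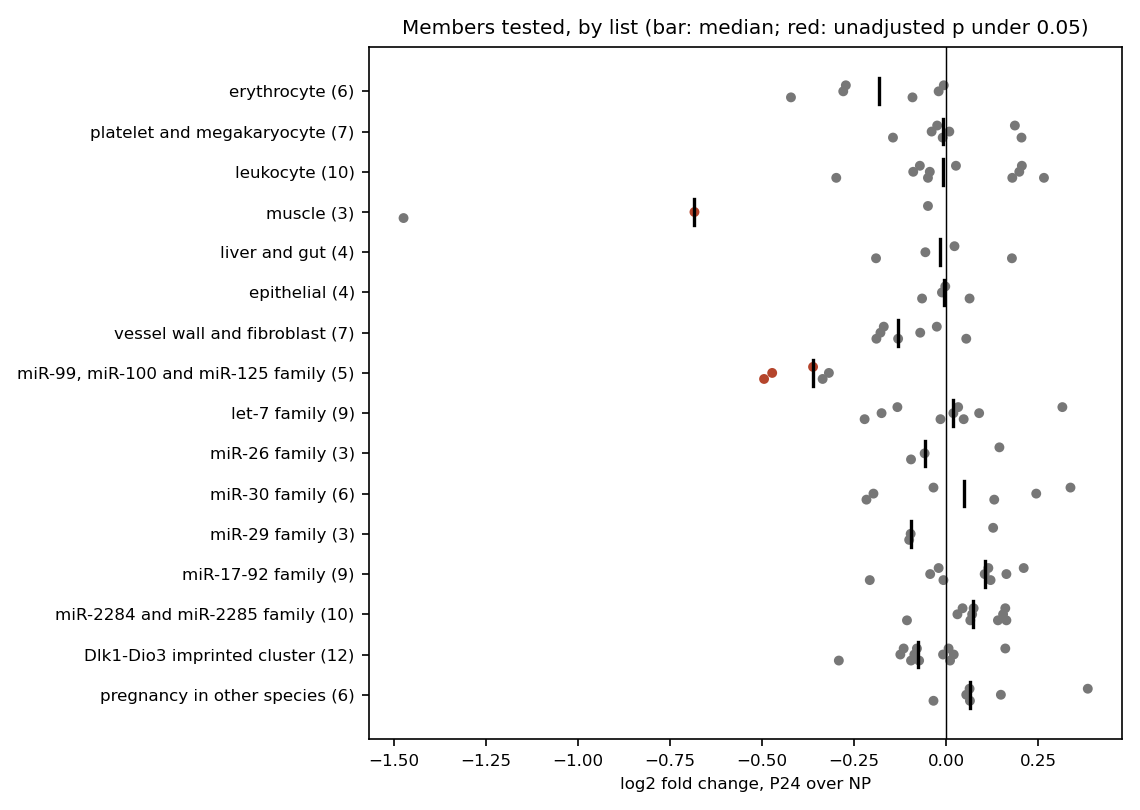
Log2 fold change of P24 over NP (horizontal axis) of the tested members of 16 lists, with the number tested in brackets, a bar at each list's median and red for unadjusted p under 0.05. The family of miR-99, miR-100 and miR-125 lies wholly below 0, between -0.49 and -0.32, and most other lists straddle 0.

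Against the NP average none of 15 measures of the whole library passed, and the smallest adjusted p was 0.475 (two-sided exact permutation tests with Benjamini-Hochberg adjustment over the 15). Against NP16 alone 4 of the 15 were at an adjusted exact p of 0.0871, under 0.1 but not under 0.05. The erythrocyte list took 25.0 ± 5.13% of the miRNA reads in P24 and 34.5 ± 11.1% in NP16 (unadjusted exact p = 0.0232). The platelet list took 6.41 ± 1.12% in P24 and 5.199 ± 0.933% in NP16 (unadjusted exact p = 0.0215). Diversity was 5.09 ± 0.15 bits in P24 and 4.74 ± 0.41 bits in NP16 (unadjusted exact p = 0.0146), and human names took 0.129 ± 0.0356% in P24 and 0.0905 ± 0.0234% in NP16 (unadjusted exact p = 0.00752). Against the average, Shannon diversity of the miRNA reads was 5.09 ± 0.15 bits in P24 and 4.92 ± 0.27 bits in NP, with an unadjusted exact p of 0.107. The number of names with at least 1 read was 482 ± 35.3 in P24 and 488 ± 16.9 per library in NP. Human names took 0.129 ± 0.0356% of the miRNA reads in P24 and 0.106 ± 0.0259% in NP.

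Groups tied to development and reproduction held no miRNA past the FDR limit. The imprinted Dlk1-Dio3 cluster, a large run of miRNA genes expressed from the maternal chromosome, had 12 of 49 names tested, 4 positive and 8 negative, with a median of -0.08. With library totals 9 of the 12 were positive. By day its signs turned, with 0 of 12 positive against NP0, 11 of 12 against NP8 and 3 of 12 against NP16. The ruminant family of miR-2284 and miR-2285 had 9 of 10 tested members positive, all within a log2 fold change of -0.11 to 0.16, and 0 of 10 at unadjusted p under 0.05. Several of its members are near-identical, so these signs are not separate pieces of evidence. The miR-17-92 family, which promotes proliferation, was positive for 5 of 9 (median 0.11). Of 6 miRNAs linked to pregnancy in other species, 5 were positive, and the largest was miR-149-5p at 0.38 ± 0.22 (71.4 RPMM in P24 and 53.6 RPMM in NP). The study also ran a PCR array on pools of these animals. Of the miRNAs it chose there as higher in pregnancy, 3 of 9 tested were positive here (median -0.06), and of those chosen as lower, 3 of 5 were negative (median -0.10). By day, the first set had 3 of 9 positive against NP0 (median -0.18), 1 of 9 against NP8 (median -0.14) and 8 of 9 against NP16 (median 0.25, 1 at unadjusted p under 0.05). The second set had 3 of 5, 4 of 5 and 4 of 5 negative on those days. That choice was made on the same animals and is not independent. By RT-qPCR the study also reported a higher level of miR-26a in early pregnancy, in these heifers and in an independent group. Not every day of pregnancy reached significance there. Here miR-26a had a log2 fold change of -0.06 ± 0.27 (edgeR unadjusted p = 0.834). Its means were 6645 RPMM in P24 and 6934 RPMM in NP. The miR-26 family median was -0.07 against NP0 alone, -0.28 against NP8 and 0.30 against NP16. No library here came from the independent group.

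Where both arms were tested, matched by name, 8 of 14 pairs had the same sign and 6 opposite signs. For miR-193a, miR-199a and let-7a the listed positions lie on different chromosomes, so these pairs are not shown to come from 1 hairpin. Of them miR-193a and miR-199a had opposite signs and let-7a the same sign. miR-17-5p and miR-17-3p gave log2 fold changes of 0.21 and 0.17, while miR-142-3p and miR-142-5p, from a hairpin specific to blood cells, gave 0.21 and -0.07.

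The intervals of the differences were mostly narrower than 2-fold. For 201 of 214 miRNAs (93.9%) the 95% interval of the difference, from limma on log2(RPMM + 1), lay within 2-fold in either direction, and for 130 it lay within 1.5-fold. The typical interval reached 0.40 on the log2 scale to either side of its estimate (median), a factor of 1.32. Of the 62 miRNAs at 1000 RPMM or more, 61 had an interval within 2-fold, and of the 152 below it 140 did. The 13 exceptions included miR-133a, miR-208b, miR-122, miR-215 and hsa-miR-4532. For miR-99a-5p the interval ran over 0.539 to 0.925 of the NP level, and for miR-365-3p over 0.580 to 0.946. These 2 were named for their small p, and neither passed the FDR limit. The intervals are not adjusted for the number of miRNAs, and 8 of the 214 excluded no change.

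**Figure D5:**
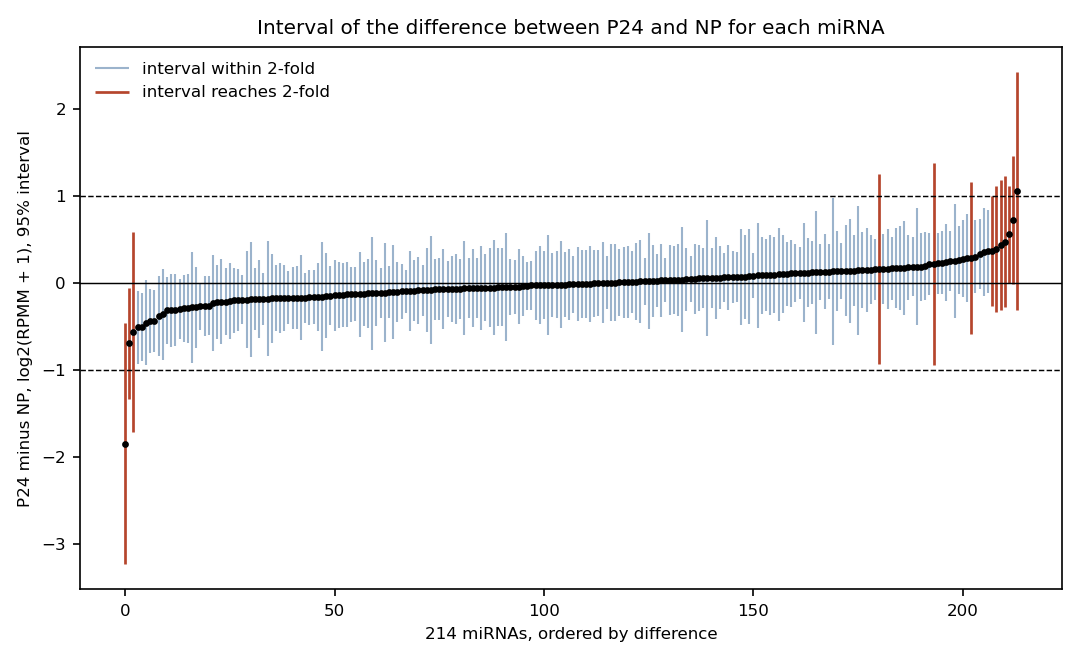
Difference between P24 and NP on the log2(RPMM + 1) scale (vertical axis) with its 95% interval from limma for each of the 214 miRNAs, ordered by the difference. Dashed lines mark 2-fold, and the 13 intervals that reach them are red.

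P24 heifers varied more than NP heifers, as single libraries set against means of 3. The median SD of log2(RPMM + 1) over animals was 0.467 in P24 and 0.323 in NP, and 177 of 214 miRNAs varied more in P24. Against single NP days the order was mixed, with median SDs of 0.510 in NP0, 0.428 in NP8 and 0.385 in NP16, and P24 was the more variable for 91, 108 and 154 miRNAs on the 3 days in order. The SDs were compared as a description, with no test.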

How the data were processed

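Plasma small RNA was sequenced in single-end reads from the samples described above. The authors trimmed the reads, aligned them with sRNAtoolbox (UMD 3.1 assembly) and matched them to mature miRBase miRNAs, bovine first and human second, with 1 mismatch allowed, which gave the deposited counts per miRNA name. The authors divided these by the mapped reads of each library to give the deposited RPM (RPMM in the study). Per-sample columns with no sample numbered 0. No mature sequences were used here.

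For each NP animal, 3 libraries were summed (counts) or averaged (RPM). A miRNA was kept when at least 25% of the libraries in any of the 5 groups of the series held 25 RPM or more. Counts were tested with edgeR 4.0.16 (R 4.3.3; TMM, glmQLFit, glmQLFTest, no covariate) on the 11 P24 and 8 NP animals, with Benjamini-Hochberg adjustment over all miRNAs tested and an FDR limit of 0.1. Intervals came from limma 3.58.1 on log2(RPM + 1), and fold changes on that scale understate the change of low miRNAs. Exact permutation tests and figures used Python 3.11.15, numpy 2.4.6, pandas 2.3.3, scipy 1.17.1 and matplotlib 3.10.9. Alternatives were library totals, DESeq2 size factors, DESeq2 1.42.0, limma with a pseudocount of 1 or 0.1, a robust fit, other filters (none, 100 RPM, the compared groups), an FDR limit of 0.05, single NP days, NP libraries taken as independent or blocked by animal, and each animal left out. The tests were checked on simulated data, with equal dispersion in both groups for edgeR, DESeq2 and limma. That check does not cover the unequal spread of P24 and NP values. No 2 libraries were identical. Replicates were separate animals, and read counts without molecular identifiers cover counting error only.

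miRNAs were named by a rule: the 20 with the smallest unadjusted edgeR p, the 10 most abundant, those the study names for this comparison, the member of each list with the smallest p, all muscle and miR-99/100/125 members, and other arms. Not every miRNA the rule allows is printed. Neighbours within 50 kb, list members given as examples, and the miRNAs past the limit against Day 0 were named after their values were seen. A miRNA with both means under 25 RPM is called low. The members and lists were chosen with earlier results of these data known.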

Additional observations from a re-analysis of the deposited data

Results flagged for a closer look

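In the NP group, 4 results held 1 heifer far from the other 7, by Dixon's test with a limit of 0.526 for 8 animals. This was run on 45 results, and chance alone flags about 1 in 20. NP replicate 16 accounted for 3 of the 4. Its miRNA share of mapped reads was 60.13%, the lowest of the 8, beside 67.6 ± 6.996% in P24 (SD) and 70.0 ± 4.49% in NP. Human names took 0.1633% of its miRNA reads, the highest of the 8, and the vessel wall and fibroblast list took 3.622%, also the highest. In NP replicate 22, let-7c was at 420.5 RPMM, the highest of the 8 NP heifers. The part of the plasma sample, the extraction or the animal in these values was not tested.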

How the results depend on the processing

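The FDR count was 0 under every alternative listed among the methods except NP Day 0 alone, where it was 5, and leaving out P24 replicate 24, where it was 2 (miR-133a and miR-208b), so that it ranged over 0 to 2 with 1 heifer left out. That library had been set apart in part by its muscle markers, so those 2 calls depend on the choice. At unadjusted p under 0.05 the 7 became 12 with DESeq2, 36 with no filter, 36 against NP Day 0, 18 against NP Day 16 and 19 with NP libraries as independent, and 4 to 12 with 1 heifer left out. P24 and NP share no animal, so pairing exists only within NP. With the NP libraries kept apart and the animal as replicate block, 0 passed the FDR limit and 8 were at unadjusted p under 0.05.

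Of 34 miRNAs examined in each alternative, 8 changed sign under at least 1. miR-182, at 0.90 over all animals, was -0.11 with DESeq2 and ranged over -0.14 to 0.999 with 1 heifer left out. miR-22-3p was -0.077 against NP Day 0 and -0.012 against NP Day 8. miR-499 was 0.014 with library totals and 0.249 against NP Day 16, and ranged over -0.195 to 0.090 with 1 heifer left out. let-7c was -0.046 in limma (and in the permutation values), -0.047 with a pseudocount of 0.1, -0.016 against NP Day 8 and -0.015 against NP Day 16, and ranged over -0.134 to 0.167. miR-142-3p was -0.048 against NP Day 8, and miR-193a-3p was -0.235 against NP Day 0. Against NP Day 16, miR-122 was 0.002 and miR-215 was -0.004.

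Of the library measures (P24 minus NP), the number of names with a read was 4.09 against NP Day 16 (leave-one-out -11.4 to 1.5) and the vessel wall share 0.248 percentage points (-0.216 to 0.180). Leave-one-out ranges also crossed 0 for the lysis index (-0.167 to 0.108), the leukocyte share (-0.371 to 0.382), the liver and gut share (-0.177 to 0.743) and the epithelial share (-0.000123 to 0.0336). The list medians moved by less than the SE of a typical member in all 75 values recomputed with library totals, with DESeq2 size factors or, chosen after seeing the data, without P24 replicate 24. Against NP Day 0 alone some moved more. Among them were the Dlk1-Dio3 cluster (-0.44), the vessel wall list (-0.46), the miR-99/100/125 family (-0.70) and muscle (-1.38). The miR-193 and miR-365 cluster (-0.52) and miR-103 with miR-107 (-0.36) did so too. Medians also moved against NP Day 16 alone. The erythrocyte median was -0.47 there and -0.18 against the NP average, and the miR-26 family median was 0.30 and -0.06. The cause of these changes was not tested. A P24 library of 651408 miRNA reads gives the least precise values, and a single bleed per P24 heifer leaves her day-to-day variation out.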
